A study of Caenorhabditis elegans with 2 samples.

Results

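Ribosomal protein genes encode the proteins of the cytoplasmic ribosome, and their mRNAs are among the most abundant in growing cells. They were chosen here by name, as loci called rpl, rps or rla followed by a plain number, together with ubl-1. The rule found 78 of the 45510 genes in the count files, all of them protein-coding. The large subunit had 46 members (43 rpl and 3 rla genes) and the small subunit 32 (31 rps genes and ubl-1). The locus field of the files named only 4 of them, so the names came from the Ensembl annotation of WBcel235 through the gene identifier in that field. The annotation lists another 2 names of the rule, rpl-41.1 and rpl-41.2, which were not analysed here, and the spelling of the rule leaves out rpl-7A, rpl-36.A, ubq-2 and rack-1.

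The study sequenced small RNAs that came down with NRDE-3, a nuclear Argonaute protein, from lysates of Caenorhabditis elegans embryos. An anti-FLAG antibody pulled down the tagged protein, and RNA of 20 to 30 nt was cloned after its 5′ end had been set to a single phosphate. Each group was a single library, so no difference between them could be tested, no p-value is given, and strain, food and library preparation cannot be told apart. Intervals are 95% intervals for counting error only, exact except for those of differences and ratios between the subunits, which are approximate.

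Both groups carried 3xflag::gfp::nrde-3 and were kept at 20 °C before the experiment. For the wild-type library N2 animals were raised from the first larval stage on Escherichia coli OP50. The RNAi library came from eri-1(mg366);dpy-13(e458) animals raised on plates of bacteria for RNA interference against dpy-13, a cuticle collagen gene, and the series describes it as a control. The mutation in eri-1, an exonuclease gene, is known to make animals more sensitive to RNA interference. The labels do not give the promoter of the tagged nrde-3 or its place in the genome, and no library without the tag, or of RNA before the pull-down, was analysed here.

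A small RNA that guides an Argonaute to an mRNA has the sequence opposite to that mRNA, and RNA-dependent RNA polymerases make such 22-nt RNAs on the mRNA template. A read in the sense direction has the sequence of the mRNA itself, as a broken piece of it would. The ribosome holds a single copy of most of its proteins, and its large subunit forms peptide bonds while its small subunit reads the mRNA.

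Counted reads numbered 7693320 in wild type and 5537671 in the RNAi library, and ribosomal RNA genes took 78.9% and 82.6% of them. Of microRNA reads, 99.9% and 99.5% were in the sense column, so sense means the strand of the transcript. As a check of the tissue, sense reads were detected on 12 of 12 maternal and early embryo genes in each library, with 986 and 682 reads in sum. Of 14 zygotic embryo genes 11 and 10 were detected, and end-3, med-1 and med-2 had no sense read in either library. The list summed to 178 and 3863 sense reads, of which elt-1, an epidermal transcription factor gene, had 25 and 3641. All 6 yolk protein genes, which the adult intestine expresses, had sense reads, with 3957 and 6432 in sum. Of 31 sperm genes of the msp family 4 and 16 had sense reads, with 4 and 21 in sum. The ratio of RNAi to wild-type sense reads per 1000000 counted reads (RPM) was 0.961 for the maternal, 30.2 for the zygotic and 2.26 for the yolk list. The zygotic ratio was led by elt-1. Over the 7 zygotic genes with 10 or more sense reads in both libraries together, the median log2 ratio was 1.42, against 1.53 for all genes. The part of these tissues in the ratios given below was not tested.

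Nearly all reads on ribosomal protein genes had the sequence of the mRNA. In wild type the 78 genes held 5357 sense and 83 antisense reads, so that 1.53% of their reads (1.22 to 1.89) were antisense. In the RNAi library they held 10496 sense and 524 antisense reads, and the antisense share was 4.75% (4.37 to 5.17). Over the other protein-coding genes, without nrde-3, the antisense shares were 80.4% and 49.7%. The median one of those genes with 10 or more reads had 8.33% antisense reads in wild type and 36.4% in the RNAi library. The median member with as many reads had 1.22% and 3.94%.

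A gene was called sense-led when it had 10 or more reads in a library, at least 4 times as many sense as antisense reads, and an interval wholly beyond 2 times. In wild type 74 of 76 members with enough reads were sense-led, against 59.1% of all genes and 60% of protein-coding genes. In the RNAi library 73 of 77 were, against 26.1% of all genes and 24.5% of protein-coding genes. The opposite call, antisense-led by the same rule, was met by 0 members in either library. It was met by 9.42% of all genes and 6.63% of protein-coding genes in wild type, and by 14.5% and 11.9% in the RNAi library. The plot of sense against antisense reads shows the members in a group below the line of equal strands.

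**Figure D1:**
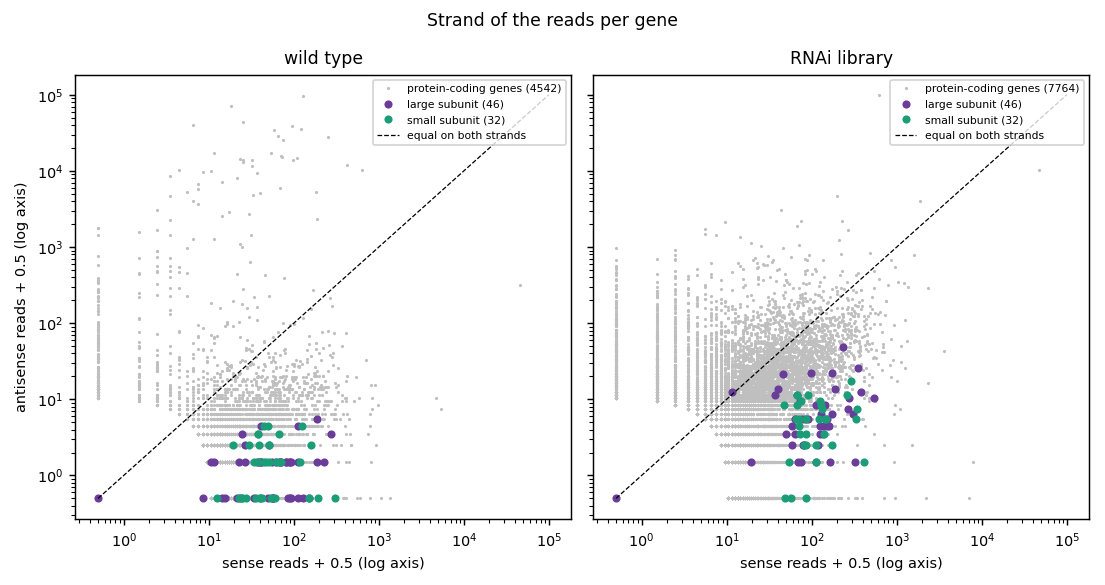
Sense reads (horizontal) and antisense reads (vertical) per gene, each with 0.5 added, on log axes, in the wild-type library (left) and the RNAi library (right). Grey points are protein-coding genes with 10 or more reads in that library, members included, purple points the 46 large subunit and green points the 32 small subunit genes. Members lie below the dashed line of equal strands, apart from rpl-24.2 in the RNAi library, with 11 sense and 12 antisense reads, and rpl-42, which had no read.

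Sense reads covered both subunits at similar levels. For the large subunit the median was 13.6 sense reads per kilobase of transcript per 1000000 counted reads (RPKM) in wild type and 39.0 in the RNAi library. For the small subunit it was 11.2 and 40.1. The median member had more sense reads per kilobase than 99.0% of protein-coding genes in wild type and 99.3% in the RNAi library. Members made up 2.60% and 2.68% of the sense reads on protein-coding genes other than nrde-3. Reads of 1 gene were added up over its isoforms, since 50 members have several transcripts in the files, 188 in all, among which the aligner places a shared read on 1.

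In the large subunit rpl-18 (chromosome IV, 13777865 to 13778809) led in both libraries, with 277 and 539 sense reads, or 55.05 and 149 RPKM. It was followed in wild type by rpl-21 (186 and 320 reads, 45.3 and 108 RPKM) and rpl-38 (81 and 76 reads, 35.6 and 46.4 RPKM). rpl-43, a zinc-binding protein of the large subunit, was the second in the RNAi library, with 122 RPKM, but had 12.2 RPKM in wild type. At the low end rpl-24.2, a relative of a ribosome assembly factor of yeast, had 10 and 11 sense reads, or 2.23 and 3.41 RPKM.

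rpl-42 (WBGene00004455; chromosome II, 11092713 to 11094022) was the one member with no read on either strand in either library. Its name rests on the annotation alone, and whether this identifier is the expressed gene of that name was not tested. A count of 0 allows up to 3 reads, which is 0.390 RPM in wild type and 0.542 in the RNAi library. No small subunit gene was at 0, and the lowest were rps-13 in wild type, with 3.08 RPKM, and rps-7 in the RNAi library, with 12.3.

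In the small subunit rps-1 had 303 and 412 sense reads, or 45.5 and 86.01 RPKM. rps-14 had 159 and 260 reads, or 40.8 and 92.6 RPKM, and was the highest of the subunit in the RNAi library. rps-4 had 191 and 288 reads, or 29.6 and 61.9 RPKM. rps-3, which lines the channel where mRNA enters the ribosome, had 152 and 331 reads, or 24.7 and 74.6 RPKM. ubl-1, which makes a ubiquitin-like protein fused to a small subunit protein, had 117 and 132 reads, or 27.2 and 42.6 RPKM.

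The 3 rla genes encode the stalk of the large subunit, which recruits translation factors. rla-0, the base of the stalk, had 128 and 307 sense reads, or 16.1 and 53.7 RPKM. The acidic proteins rla-1 and rla-2 bind to it, and in mature ribosomes are present in more copies than the other proteins. rla-1 had 40 and 58 sense reads, or 11.8 and 23.7 RPKM, and rla-2 had 11 and 37, or 3.17 and 14.8 RPKM. Fragments of their mRNAs were thus fewer per kilobase than those of rla-0 in both libraries.

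The order of the members was much the same in both libraries. Across the 78 genes the Spearman correlation of sense reads was 0.85, and per kilobase it was 0.76. The genes share a library and differ in length, which itself had a Spearman correlation of 0.54 with sense reads in wild type and 0.46 in the RNAi library. The 5 members with most reads held 22.1% of the members' sense reads in wild type and 19.3% in the RNAi library.

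**Figure D2:**
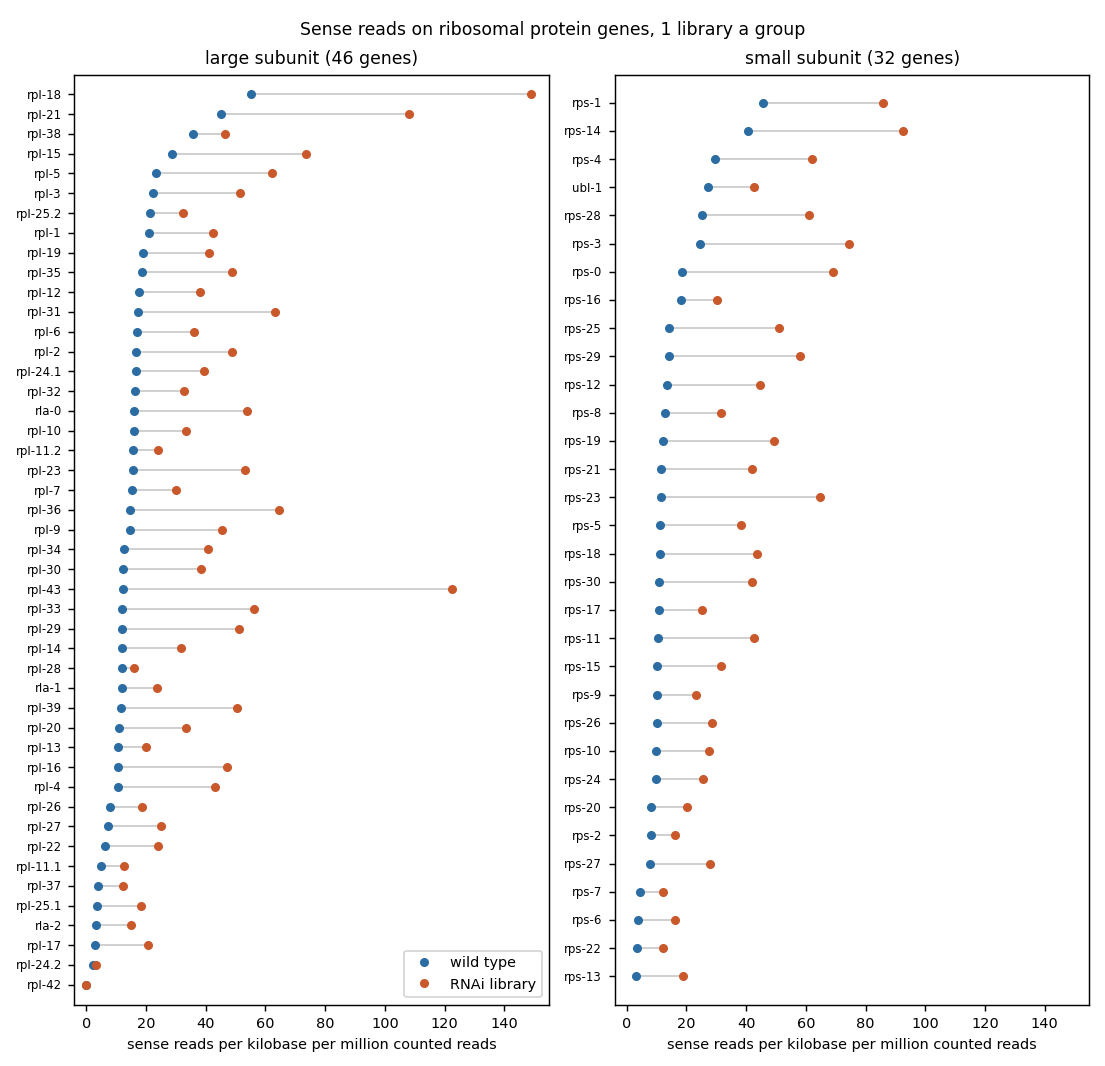
Sense reads per kilobase per 1000000 counted reads for each large subunit gene (left) and small subunit gene (right), ordered by the wild-type level. Blue points are the wild-type library and orange points the RNAi library. rpl-18 was highest in both, at 55.05 and 149, and rpl-43 was at 12.2 and 122.

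Sense reads on ribosomal protein genes were higher in the RNAi library, and the median member by about as much as the median gene. In sum they were 2.72-fold higher (2.63 to 2.81) in RPM, at 2.71-fold (2.59 to 2.82) for the large and 2.75-fold (2.61 to 2.90) for the small subunit. The same ratio of sums was 1.40 over all genes, ribosomal RNA included, and 2.63 over the other protein-coding genes without nrde-3. All 77 members with 10 or more sense reads over both libraries had a ratio above 1. Their median log2 ratio, with 0.5 added to each count, was 1.51, and that of all 7591 genes with as many reads was 1.53. Of the 77 members, 38 lay above that all-gene median. TMM scaling of the sense counts shifts every log2 ratio by −1.53 and brings the sum of the members to 0.940, so the direction rests on the scaling.

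The size rule asked of a gene with 10 or more reads that the libraries differ 4-fold or more, that the interval leave out 2-fold, and that the larger level reach 10 RPM. On the sense strand 13 of 77 members met it in the higher direction (7.54% of all genes did), 8 of the large and 5 of the small subunit. In the lower direction 0 members met it (0.263% of all genes). The rule favours genes with many reads, and under TMM scaling with the same level minimum 0 members met it. The 13 genes were rpl-4, rpl-16, rpl-17, rpl-29, rpl-33, rpl-36, rpl-39, rpl-43, rps-6, rps-11, rps-19, rps-23 and rps-29, some of which are named here only because the count is given.

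The gene farthest from the others was rpl-43 (chromosome II, 14155294 to 14155569), with 26 and 187 sense reads, 9.99-fold higher (6.61 to 15.7). Next came rpl-17, whose protein lines the exit tunnel of the nascent chain, with 15 and 74 reads, 6.85-fold higher (3.90 to 12.9). rps-13 had 12 and 53 reads, a ratio of 6.14 (3.24 to 12.6), and stayed below the level minimum of the rule. rps-23, a protein of the decoding centre, had 42 and 173 reads and was 5.72-fold higher (4.06 to 8.22). These 3 genes of the size rule and rps-13 have intervals wholly above the ratio of the sum.

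At the other end rpl-38 had 81 and 76 sense reads, a ratio of 1.30 (0.94 to 1.81), and rpl-28 had 41 and 40, a ratio of 1.36 (0.85 to 2.15). The intervals of both include equal RPM. ubl-1 had a ratio of 1.57 (1.21 to 2.03) and rps-1 of 1.89 (1.62 to 2.20). In all, 12 members had an interval wholly above the ratio of the sum and 11 wholly below it. Without replicates it cannot be told whether such differences are larger than those between 2 preparations of the same strain.

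**Figure D3:**
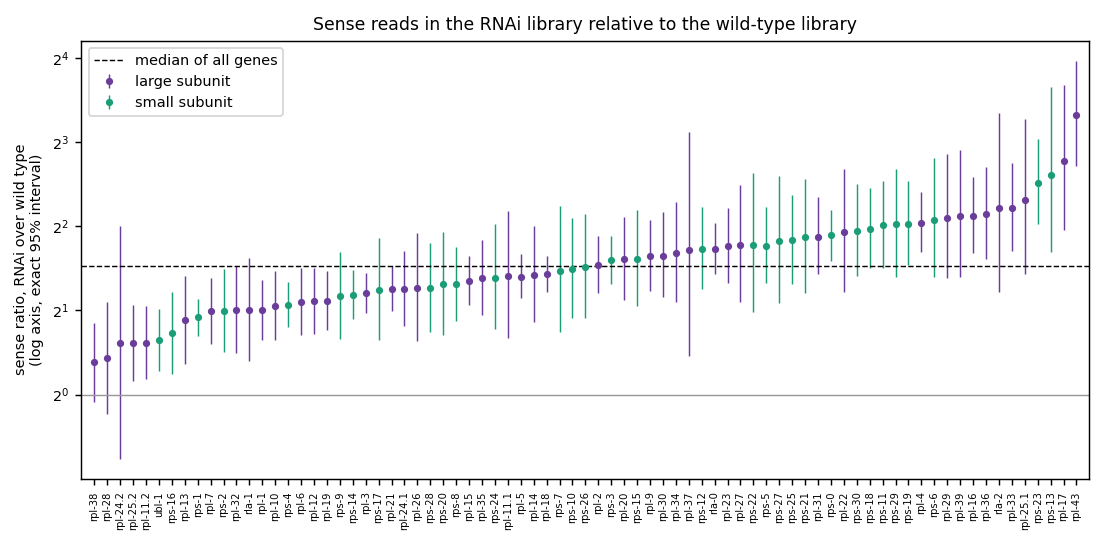
Ratio of sense RPM in the RNAi library to that in the wild-type library for the 77 members with 10 or more sense reads, in rising order on a log axis, with exact 95% intervals for counting error. Purple is the large and green the small subunit, and the dashed line is the median of all genes, 1.53 on the log2 scale. Members lie on both sides of that line, from rpl-38 at 1.30 to rpl-43 at 9.99.

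Antisense reads on ribosomal protein genes were few. In wild type 31 members had none, the median was 1 read and the highest count was 5, on rpl-5. In the RNAi library 4 members had none (rpl-42, rps-7, rps-15 and rps-27), the median was 5 reads and the highest count was 48, on rpl-2. Members held 0.0101% of the antisense reads on protein-coding genes other than nrde-3 in wild type and 0.139% in the RNAi library.

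Per kilobase the place of the members on this strand depended on the summary. The median member had 0.202 antisense RPKM in wild type, more than 86.2% of protein-coding genes, and 1.65 in the RNAi library, more than 82.6%. Most protein-coding genes have few reads of any kind, and 10018 of 20535 had no antisense read in the RNAi library. In wild type 14166 of the 20535 had none, so the median protein-coding gene was at 0 and no member could lie below it. Pooled over genes, as all antisense reads over all transcript lengths, the order was the opposite, with 0.237 RPKM on the members against 3.43 on the other protein-coding genes in wild type and 2.08 against 2.33 in the RNAi library.

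In sum the antisense reads were 8.77-fold higher (6.95 to 11.2) in the RNAi library. The sum over the other protein-coding genes had a ratio of 0.653 and that over all genes a ratio of 0.497. Those sums hold single genes with very many wild-type reads, such as E01G4.5, with 95885 and 39. The median log2 ratio of other protein-coding genes with 10 or more antisense reads over both libraries was 3.64. In RPM the antisense reads were higher for 72 members and lower for rps-15, rps-16 and rps-25, with at most 4 antisense reads per library. With 10 or more antisense reads over both libraries, 23 members were measured, and their median log2 ratio was 3.14, against 3.58 for all 5751 such genes. That minimum takes in members through the library where they are high, and with 1 or more reads the medians were 2.59 over 75 members and 2.80 over all genes. By the size rule 0 members were higher and 0 lower (18.6% and 2.63% of all genes), since the highest member had 8.67 RPM, below the level minimum of 10. TMM scaling of the antisense counts shifts the log2 ratios by −3.57 and brings the sum to 0.738, so here too the direction depends on scaling.

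The antisense reads were spread unevenly over the large subunit. rpl-2 (chromosome V, 20479689 to 20480834), a protein of the core around the peptidyl transferase centre, had 4 and 48 antisense reads beside 111 and 233 sense reads, a ratio of 16.7 (6.10 to 63.7). Its neighbour dhcr-7 on the other strand shares 32 bases of exon with it and had 6 and 4 sense reads. rpl-5, which binds the 5S ribosomal RNA, went from 5 to 25 antisense reads, 6.95-fold higher (2.61 to 23.2). rpl-16 had 0 and 22, which is 10.2-fold higher when 3 reads are taken for a count of 0. The exact interval of its ratio starts at 7.61. With the same floor rpl-39, a small protein at the exit tunnel, was 5.09-fold higher, from 0 to 11 reads. By that floor rpl-15 was 4.63-fold higher, from 0 to 10. The exact intervals of rpl-39 and rpl-15 start at 3.49 and 3.11.

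In the small subunit the highest antisense count of the RNAi library was 17, on rps-4, from 0 in wild type. That is 7.87-fold higher when 3 reads are taken for the 0, and its exact interval starts at 5.73. rps-14 went from 2 to 11 reads, 7.64-fold (1.67 to 70.9), rps-2 had 1 and 11, a ratio of 15.3 (2.22 to 658), and rps-20 had 3 and 11, a ratio of 5.09 (1.35 to 28.4). rps-0 had 4 and 7, a ratio of 2.43 (0.62 to 11.3), and rps-10 had 3 and 9, a ratio of 4.17 (1.04 to 23.9). The wild-type counts of rps-25 and rps-28, both 4, were the highest of the subunit together with rps-0, and their RNAi counts were 2 and 3. Counts of this size leave the ratio of a single gene poorly known.

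The summed antisense ratios of the subunits differed by more than counting error, while their median counts and levels in each library were alike. The median was 5 antisense reads in the RNAi library and 1 in wild type for both subunits, or 1.65 RPKM for the large and 1.67 for the small subunit in the RNAi library and 0.193 and 0.236 in wild type. The large subunit had 44 and 359 antisense reads, 11.3-fold higher (8.27 to 15.9), and the small subunit 39 and 165, 5.88-fold higher (4.12 to 8.56). The first ratio was 1.93 times the second, with an interval of 1.21 to 3.08 from the 4 counts. Without rpl-2 it was 1.84 times. The antisense share of reads was 1.33% (0.972 to 1.79) for the large and 1.82% (1.30 to 2.48) for the small subunit in wild type, and 5.36% (4.84 to 5.93) and 3.81% (3.26 to 4.43) in the RNAi library. The sense share of the large subunit was 0.484 percentage points above that of the small subunit in wild type, within a half-width of 0.688, and differed by −1.55 points in the RNAi library, with a half-width of 0.785. Without rps-1 the wild-type difference was 0.783 points, and without the numbered copies the RNAi difference was −0.917 points. On the sense strand the 2 summed ratios differed by a factor of 0.985 (0.921 to 1.05). The spread between preparations is not known for any of these values.

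Among the members the antisense share in the RNAi library ran from 0 to 52.2%. It was highest for rpl-24.2, with 12 antisense of 23 reads (30.6 to 73.2), where wild type had 1 of 11. rpl-11.1 had 21 antisense beside 46 sense reads, or 31.3% (20.6 to 43.8), and in wild type 3 beside 24, or 11.1%. rpl-28 had 13 beside 40, or 24.5% (13.8 to 38.3), rla-2 had 11 beside 37, or 22.9% (12.03 to 37.3), and rpl-11.2 had 22 beside 97, or 18.5% (11.96 to 26.6). rpl-2 stood at 17.1% (12.9 to 22.0). In all 14 members had an interval wholly above the share of the sum. The 4 measured members that were not sense-led in the RNAi library were rla-2, rpl-11.1, rpl-24.2 and rpl-28.

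At the low end rps-1 had 1 antisense beside 412 sense reads, or 0.242% (0.00613 to 1.34), and rpl-21 had 1 beside 320, or 0.312%. rps-15 had 0 of 86 reads. These were 3 of 9 members with an interval wholly below the share of the sum. Sense and antisense reads of a member were weakly related in the RNAi library, with a Spearman correlation of 0.23 over 78 genes of that library.

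Several members have numbered names and are called numbered copies here, though the name alone does not make them copies of 1 protein. rpl-11.1 and rpl-11.2 encode versions of a protein that joins the 5S ribosomal RNA to the large subunit, and the aligner assigns a read that fits both to 1 of them, so their split is uncertain. Their sense reads were 24 and 46 for rpl-11.1 and 88 and 97 for rpl-11.2, ratios of 2.66 (1.59 to 4.56) and 1.53 (1.14 to 2.07). rpl-25.1 had 14 and 50 sense reads, a ratio of 4.96 (2.70 to 9.72), while rpl-25.2 had 81 and 89, a ratio of 1.53 (1.12 to 2.09). These 2 intervals do not overlap, but they cover counting error only, not the placing of reads that fit both copies. rpl-24.1, a protein of the large subunit, had 69 and 119 sense reads beside 1 and 2 antisense reads, where rpl-24.2 had 10 and 11 beside 1 and 12. Together the 6 numbered copies had an antisense share of 2.39% (0.966 to 4.86) in wild type and 13.6% (10.7 to 17.04) in the RNAi library. Of their 65 antisense reads in the RNAi library, rpl-11.1 had 21, rpl-11.2 had 22 and rpl-24.2 had 12. The shares of rpl-24.1, rpl-25.1 and rpl-25.2 were 1.65%, 5.66% and 5.32%.

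The ribosomal protein genes left out by the spelling rule were also nearly all sense. rpl-7A had 182 and 227 sense reads, rack-1, a scaffold protein on the small subunit, 160 and 471, ubq-2, a ubiquitin fused to a large subunit protein, 22 and 77, and rpl-36.A 8 and 42. Their antisense reads were 3 and 25 in sum, a share of 0.80% (0.165 to 2.32) and 2.97% (1.93 to 4.35). The interval overlaps that of the members in wild type and lies just below theirs in the RNAi library.

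Other genes of translation had larger antisense shares in the RNAi library. The 6 elongation factor genes, which act in the elongation step of translation, had 2075 and 3395 sense and 35 and 572 antisense reads. Their antisense share was 1.66% (1.16 to 2.30) in wild type, within the range of the members, and 14.4% (13.3 to 15.5) in the RNAi library. Most of it lay on eef-1A.2, with 17 and 379 antisense reads beside 411 and 612 sense reads, while eef-1A.1 had 2 and 30 beside 917 and 1113 and eef-2 had 2 and 57 beside 474 and 1330. Of 6 measured elongation factors 2 met the size rule on the antisense strand, both higher, where 18.6% of all genes did.

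The 34 initiation factor genes, which bring ribosomes to the mRNA, had antisense shares of 9.78% (7.88 to 11.96) and 44.3% (42.5 to 46.2). iff-2 had 19 and 431 antisense reads and ifg-1 had 16 and 283. Of 24 measured genes 2 met the size rule, both higher, a smaller share than the 18.6% of all genes. The 18 ribosome biogenesis genes had 11.8% (9.62 to 14.3) and 29.9% (27.9 to 31.8), and 4 of 17 measured genes were higher by the size rule, a share near that of all genes. The 68 mitochondrial ribosomal protein genes, whose mRNAs come from the nucleus, had 14.4% (10.5 to 19.0) and 46.4% (43.5 to 49.3). By the size rule 0 of these 21 measured genes were higher, against 18.6% of all genes, and 0 were lower, against 2.63%. Their antisense level was close to that of the members, at a median of 1.15 against 1.65 RPKM in the RNAi library, while their sense median was 1.53 against 39.0 RPKM. A list of 31 other abundant mRNAs of actins, tubulins, glycolysis, heat shock proteins and cyclophilins had 2.93% (2.36 to 3.60) and 10.8% (10.02 to 11.6). Lower shares were not particular to ribosomal protein genes, since the 6 yolk genes had 0.0253% and 0.0622%. The 14 zygotic genes had 8.72% and 3.93%, the latter led by elt-1, with 42 antisense beside 3641 sense reads. The median zygotic gene with 10 or more reads in the RNAi library was at 23.1%.

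**Figure D4:**
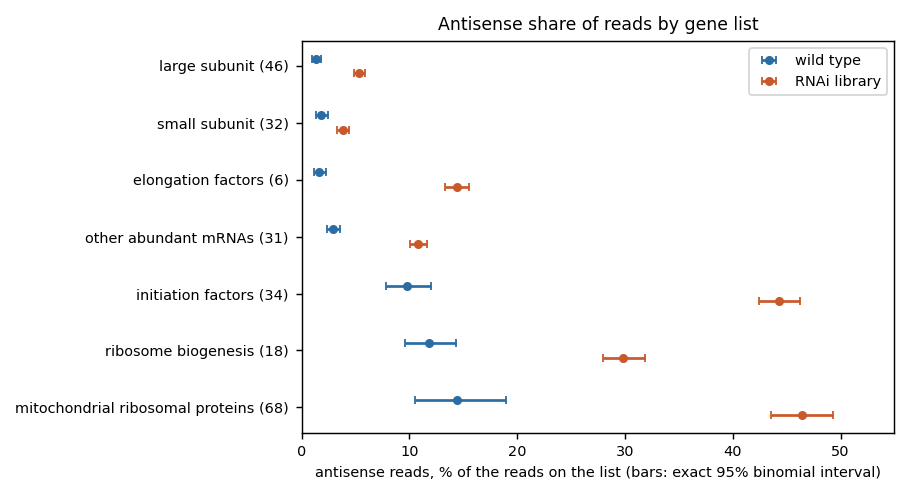
Antisense reads as a percentage of all reads on each gene list, with the number of genes in brackets, in the wild-type library (blue) and the RNAi library (orange). Bars are exact 95% binomial intervals for counting error. In the RNAi library the 2 ribosomal subunits, at 5.36% and 3.81%, lie below the 5 other lists plotted, which run from 10.8% to 46.4%.

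The members share features that the rule did not use. Only rpl-11.2 and rpl-25.1 lie on the X chromosome, 2.56% of members against 13.6% of protein-coding genes, while chromosome I holds 23 (29.5% against 14.4%) and chromosome III 19 (24.4% against 13.2%). Small nucleolar RNA (snoRNA) genes, whose products guide the modification of ribosomal RNA, lie in introns of 13 members on the same strand, 7 of the large and 6 of the small subunit. That is 16.7% of members, against 0.648% of protein-coding genes. The 19 hosted snoRNA genes had 110 and 258 sense and 0 and 6 antisense reads in sum. In the annotation 9 members (11.5%) share exon bases with a gene on the other strand, at most 50 bases, on rps-18. The share of all protein-coding genes with such an overlap was not computed. Without these 9 members the summed antisense ratio was 8.78-fold, against 8.77-fold with them.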

How the data were processed

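Small RNA reads were mapped by the authors with Bowtie2, at its defaults, to transcripts of the WS243 release, according to the series' design text. No source used here gives the Bowtie2 version. Raw counts per transcript were deposited by strand, as the file headers name them. Lines have 6 fields under 5 header names and were read by position. A further 2 and 3 lines lacking the second count, with 2 and 9 reads, were left out.

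Counts were summed per gene, and 44852 genes matched the Ensembl annotation of WBcel235, the source of names, coordinates and transcript lengths (longest transcript). RPM is per 1000000 counted reads of both strands. Ratios of RNAi to wild-type reads have Clopper-Pearson intervals (scipy 1.17.1, Python 3.11.15), and intervals between the subunits are approximate. TMM factors came from edgeR 4.0.16, over genes with 10 or more reads on a strand, and the level minimum stayed in RPM. On simulated sense counts over 7591 genes, changes were placed only on genes well above the level minimum. The simulated counts varied by counting error alone. With these settings the size rule recovered 100% of 6-fold and of 16-fold changes and called 0 unchanged genes. Recovery at lower levels, or with a spread between preparations, was not tested.

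Members and lists were chosen with earlier results of these data known. Named genes were the top 3 per subunit and library by sense reads per kilobase and by antisense reads, the 5 largest and 5 smallest ratios per strand, ubl-1, the rla genes and the numbered copies. Others were named after their values were seen.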

Additional observations from a re-analysis of the deposited data

How the results depend on the processing

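The summed sense ratio of 2.72 became 0.940 under TMM, 0.931 under median-of-ratios factors and 0.789 per microRNA sense read, and 3.29 or 3.30 outside ribosomal RNA, the latter also without overlapping genes, a setting added after the data were seen. The median log2 sense ratio of 1.51 became −0.029, −0.043, −0.28 and 1.78 under the 4 planned scalings, where the all-gene median was −0.01, −0.02, −0.26 and 1.80. The sense genes past the size rule numbered 0 under TMM, median-of-ratios and microRNA scaling, where 62, 61 and 39 of all 7591 genes were higher. They numbered 26 outside ribosomal RNA (847 of all genes) and 0 with a minimum of 50 RPM (83 of all genes).

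The summed antisense ratio of 8.77 became 0.738, 0.702 and 2.54 under TMM, median-of-ratios and microRNA scaling. The median log2 antisense ratio of 3.14 became −0.43, −0.51 and 1.35. It was 1.89 with 5 added to each count, against 2.32 for all genes, and 3.90 with 50 or more reads, a minimum that left 1 member. Without a level minimum 13 of 23 measured members met the antisense size rule, all higher, against 4367 of all 5751 genes. With 50 or more reads 40 members were sense-led in wild type, since fewer were measured. The share of all genes at that minimum was not computed, so this count has no background. The sense share in the RNAi library was 95.7% both without the numbered copies and without members that overlap a gene on the other strand, against 95.2% with all. No paired analysis was possible because each group has 1 library.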
